A study of Mus musculus with 8 samples.

Results

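The leukocyte beta2 integrins were followed here through 5 genes of the 31894 in the count table, namely the CD11 alpha chains Itgam, Itgax, Itgad and Itgal and their shared beta chain Itgb2. They were picked by gene name, and because Itgad and Itgam had been seen to rise strongly in E-cadLO cells of these same samples, so their levels and fold changes between the populations are given as a description, with no test. The libraries are bulk mRNA of tumor cells sorted from breast cancer brain metastases (BCBM) of 4 FVB mice, female by the study's methods, wild type by their labels, which give no age, and numbered 57, 58, 67 and 70, each of which gave 1 E-cadHI and 1 E-cadLO library. All mice carried the same organoid line, made from tumors of the PyMT mammary cancer model and passaged serially through the brain, which expresses E-cadherin fused to mCFP and the nuclear label Dendra2. Cells were gated as live, Dendra2-positive and low in tdTomato, and were then split into mCFP-positive (E-cadHI) and mCFP-negative (E-cadLO) cells. For its imaging and its E-cadLO transplants, the paper grew metastases in FVB reporter mice whose own cells express tdTomato. The labels call the hosts here wild type, and the paper's text does not name the hosts used for sequencing. Whether the tdTomato gate could remove host leukocytes is therefore not known. No leukocyte antibody was part of this gate, its purity was checked on mCFP-positive cells only, and a single organoid line limits what the mice stand for.

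Beta2 integrins are adhesion receptors of white blood cells. Each is a pair of 1 alpha chain and the beta chain CD18, encoded by Itgb2, and an alpha chain generally reaches the cell surface only in such a pair. Itgam (CD11b) makes the complement receptor CR3, also called Mac-1, of macrophages, microglia and neutrophils, Itgax (CD11c) the receptor CR4 of dendritic cells and some macrophages, Itgad (CD11d) a receptor found mainly on macrophages, and Itgal (CD11a) the receptor LFA-1 of lymphocytes and other leukocytes. In the brain, Itgam and Itgb2 are standard markers of microglia. In bulk samples, fewer cells of a type and less RNA per cell cannot be told apart.

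On the GRCm38 build, 3 of the alpha chain genes lie in a row on the plus strand of chromosome 7, with Itgax between the other two. Itgam (ENSMUSG00000030786) spans 128062640 to 128118491, Itgax (ENSMUSG00000030789) 128129547 to 128150657 and Itgad (ENSMUSG00000070369) 128154376 to 128223816. The gaps between them are 11.1 kb and 3.7 kb. Itgal (ENSMUSG00000030830, 127296260 to 127335138) starts 766.4 kb before Itgam on the same chromosome, and Itgb2 (ENSMUSG00000000290, 77530252 to 77565708) lies on chromosome 10. The alpha chains are similar enough that short reads could be shared, and the longest identical run in the longest transcripts of any pair was that of Itgax and Itgad, with 188 coding bases. It is shown because reads of 65 bases, the length the study used, can fall wholly inside it. In Itgax it covers parts of exons 11 to 13 (chr7:128135612-128136062, plus strand, spliced) and in Itgad parts of exons 12 to 14 (chr7:128189340-128189789). Capitals mark the 143 bases of the middle exon, from the GENCODE M21 transcripts.
Itgax and Itgad: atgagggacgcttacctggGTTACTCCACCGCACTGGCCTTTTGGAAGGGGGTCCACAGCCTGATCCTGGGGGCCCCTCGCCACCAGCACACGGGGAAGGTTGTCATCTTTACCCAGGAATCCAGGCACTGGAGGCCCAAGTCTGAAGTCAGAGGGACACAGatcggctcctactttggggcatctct

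Of the 4790 windows of 65 bases in the annotated Itgax transcripts, 294 (6.14%) also occurred in Itgad. In Itgad, 687 of 4570 windows (15%) occurred in another gene, among them these 294 and 6 in Cox6a2, a gene of the opposite strand whose exons overlap those of Itgad by 70 bases. All other pairs of alpha chains shared runs of at most 17 bases. Itgam shared 3387 of its 5158 windows with Gm49368, an overlapping gene model that is not used here as a row of its own, Itgal shared 0 of 6624 and Itgb2 17 of 3299. How the counting treated reads that match several genes, and whether it used strand, is not given in the sources used here, so part of the Itgax and Itgad counts could belong to the other gene.

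RefSeq promoters (GRCm38.p6) were at hand for 2 of the 5 genes, Itgam and Itgax, and are shown because both genes were higher in E-cadLO cells. The 250 bases before each start site were searched on both strands for GAGGAA, the core bound by the myeloid factor PU.1, and for GGGCGG, the core bound by Sp1, with matches in capitals. The searched motifs can share 1 base where they abut, and no matches shown here do.
Itgam, chr7:128062390-128062639, plus strand: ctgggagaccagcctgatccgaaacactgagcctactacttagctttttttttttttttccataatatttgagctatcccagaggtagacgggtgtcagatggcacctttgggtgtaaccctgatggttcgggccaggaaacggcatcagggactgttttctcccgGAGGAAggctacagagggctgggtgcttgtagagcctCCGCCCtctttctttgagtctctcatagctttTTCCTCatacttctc
Itgax, chr7:128129300-128129549, plus strand: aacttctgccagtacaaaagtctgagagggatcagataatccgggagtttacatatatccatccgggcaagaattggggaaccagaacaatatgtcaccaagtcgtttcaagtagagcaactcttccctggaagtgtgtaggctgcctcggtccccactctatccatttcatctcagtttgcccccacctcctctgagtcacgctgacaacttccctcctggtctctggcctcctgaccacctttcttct
The Itgam window held 2 matches to GAGGAA, at positions -84 and -15 from the start site, and 1 to GGGCGG, at -47. The Itgax window held neither set of letters. Over 32851 promoter windows of this length, 23.3% held GAGGAA and 32.7% held GGGCGG.

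The neighbouring trio Itgam, Itgax and Itgad was low in every E-cadHI library and higher in every E-cadLO library, while Itgal changed direction between mice and Itgb2 rose within each mouse from very different starting levels. Levels are CPM (counts scaled to the TMM-normalized library size), with the mean ± SD of 4 libraries. Libraries held between 9102781 and 15769200 counts, so that 3 counts, the floor used here, correspond to 0.19 to 0.33 CPM.

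Itgad had 9, 18, 7 and 4 counts in the E-cadHI libraries of mice 57, 58, 67 and 70, and 811, 137, 400 and 151 counts in the E-cadLO libraries of the same mice. Itgad was close to the floor in E-cadHI cells, and its lowest E-cadLO library lay well above its highest E-cadHI library. The mean level was 0.720 ± 0.456 CPM in E-cadHI and 28.4 ± 22.3 CPM in E-cadLO cells. The log2 fold change was 5.28 ± 0.69 (SE) in edgeR without the mouse in the model and 5.14 ± 0.55 (SE) with the mouse as a replicate block. Within mice, the log2 ratio on CPM plus 0.5 was 5.75, 3.13, 4.75 and 3.70.

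Itgam had 33, 63, 86 and 73 counts in the E-cadHI libraries of mice 57, 58, 67 and 70, and 1580, 359, 973 and 499 in their E-cadLO libraries. The populations did not overlap, and mouse 57 had both the lowest E-cadHI and the highest E-cadLO level. The mean level was 4.99 ± 1.94 CPM in E-cadHI and 64.9 ± 37.4 CPM in E-cadLO cells, with a log2 fold change of 3.70 ± 0.48 (SE) without and 3.57 ± 0.51 (SE) with the block.

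Itgax, which lies between these genes, had 13, 16, 36 and 27 counts in the E-cadHI libraries in the same order of mice and 1354, 169, 361 and 289 in the E-cadLO libraries. The E-cadLO library of mouse 57 stood far above the other 3, which lay close together. The mean level was 1.80 ± 0.86 CPM in E-cadHI and 41.2 ± 39.7 CPM in E-cadLO cells, with a log2 fold change of 4.52 ± 0.69 (SE) without and 4.14 ± 0.62 (SE) with the block.

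Itgb2, the partner that all 4 alpha chains need, had 0, 21, 41 and 85 counts in the E-cadHI libraries and 44, 67, 597 and 475 in the E-cadLO libraries. It was higher in the E-cadLO library of each mouse, but the groups overlapped, since the E-cadHI library of mouse 70 (7.46 CPM) exceeded the E-cadLO library of mouse 57 (3.27 CPM). The mean level was 3.03 ± 3.21 CPM in E-cadHI and 21.1 ± 18.3 CPM in E-cadLO cells. The log2 fold change was 2.81 ± 1.16 (SE) without and 3.10 ± 0.59 (SE) with the block.

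Itgal had 0, 42, 15 and 11 counts in the E-cadHI libraries and 26, 7, 52 and 35 in the E-cadLO libraries. It was the only one of the 5 genes that was lower in E-cadLO cells in a mouse (mouse 58), and the groups overlapped. Its mean level was 1.33 ± 1.36 CPM in E-cadHI and 2.17 ± 1.12 CPM in E-cadLO cells, with a log2 fold change of 0.72 ± 1.01 (SE) without and 1.34 ± 1.14 (SE) with the block.

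**Figure D1:**
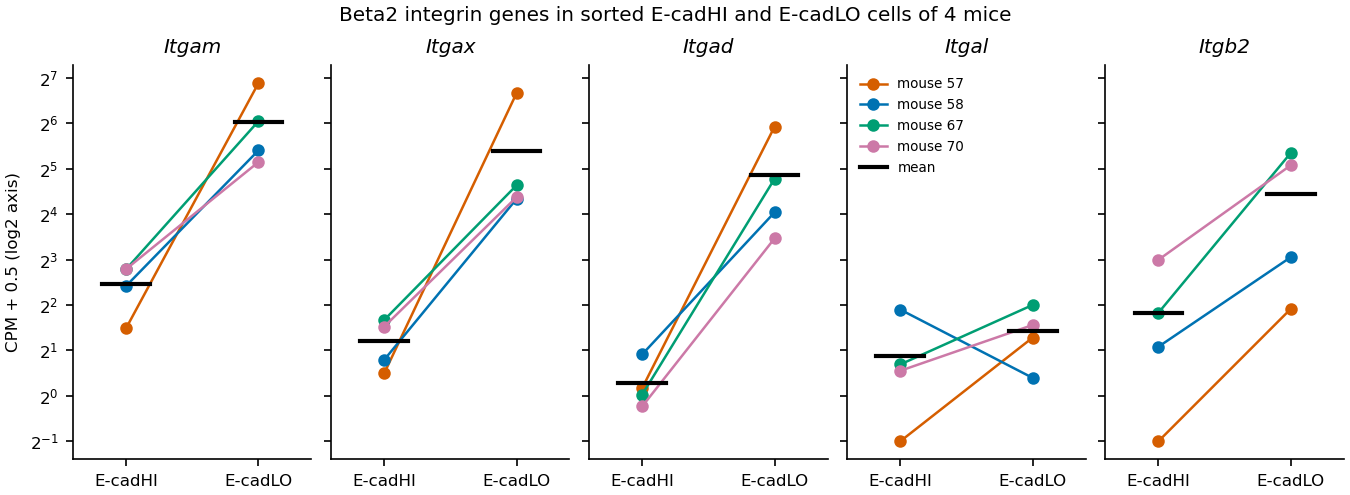
Level of each beta2 integrin gene in the E-cadHI and E-cadLO library of each mouse, as CPM plus 0.5 on a log2 axis. Lines join the libraries of one mouse and black bars are means of 4 libraries. Itgam, Itgax and Itgad separate the populations, Itgb2 rises in each mouse with overlapping groups, and Itgal falls in mouse 58.

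Across all 13598 genes tested, edgeR's quasi-likelihood test without the block called 0 genes in either direction at an adjusted p under 0.05, which is 0% of those tested, and 0 of the 5 integrin genes. Before adjustment, 1109 higher and 790 lower genes had a p under 0.05. DESeq2 without the block, over 30100 genes with any count, called 376 higher and 40 lower (335 and 40 of the 13598), with Itgam and Itgad among the former. Both libraries of a pair come from one mouse, and with the mouse as a block the test called 99 genes higher (0.728% of those tested) and 0 lower, and Itgam, Itgax and Itgad were among the 99. DESeq2 with the block called 7.16% of the same genes higher, Itgb2 as well as this trio among them. All 5 genes passed the filter on low counts. Of the 5 genes, 4 were higher in E-cadLO cells in 4 of 4 mice, as were 16.8% of all tested genes, and 3 had groups that did not overlap, as did 3.9%. Without mouse 57, the block fit called 4 of the 5 genes, beside 425 higher of all 13905 tested. Without mouse 58 it called only Itgad of the 5, beside 63 genes higher among all tested. Without mouse 67 or mouse 70 it called none of the 5, beside 0 and 2 genes higher among all tested. Since Itgad and Itgam were picked on this contrast, nothing is read from these counts.

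To compare genes with one another, levels were divided by the length of the annotated exons (CPM per kb). In E-cadLO cells the order was Itgam (12.9 ± 7.44 CPM per kb), Itgax (8.58 ± 8.26), Itgb2 (6.92 ± 6.0), Itgad (6.30 ± 4.94) and Itgal (0.331 ± 0.170). Neighbours among the first 4 differed by less than their SDs, and Itgal was below the range of the others in every E-cadLO library. In E-cadHI cells, Itgb2 (0.993 ± 1.05 CPM per kb) and Itgam (0.992 ± 0.385) came first, followed by Itgax (0.374 ± 0.179), Itgal (0.202 ± 0.207) and Itgad (0.160 ± 0.101). The step from Itgam to Itgax was larger than either SD, and the other neighbours differed by less than theirs.

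The mix of alpha chains also differed between libraries. Itgad made up 23.1%, 22%, 24.3% and 16.9% of the summed alpha chain level per kb in the E-cadLO libraries of mice 57, 58, 67 and 70, and 17.7%, 15.2%, 5.46% and 3.91% in their E-cadHI libraries, which rest on 9, 18, 7 and 4 counts. Its share was higher in the E-cadLO library of each mouse. Itgam held the largest share in all 8 libraries, from 40.3% to 64%. Itgal made up 24.4% in the E-cadHI library of mouse 58 and at most 2.69% in any E-cadLO library.

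The alpha chains and Itgb2 did not keep to one ratio. In the E-cadLO libraries of mice 57, 58, 67 and 70, the summed alpha chain level was 54.1, 6.29, 1.87 and 1.27 times the Itgb2 level per kb. In the E-cadHI libraries of mice 58, 67 and 70 this ratio was 3.82, 2.12 and 0.816, and in that of mouse 57 Itgb2 had 0 counts beside 55 alpha chain counts. Mouse 57 thus had the highest alpha chain level of any library in its E-cadLO cells (58 CPM per kb) with an Itgb2 level of 1.07 CPM per kb, whereas mice 67 and 70 had 24.6 and 13.9 CPM per kb of alpha chains with 13.2 and 10.9 CPM per kb of Itgb2.

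**Figure D2:**
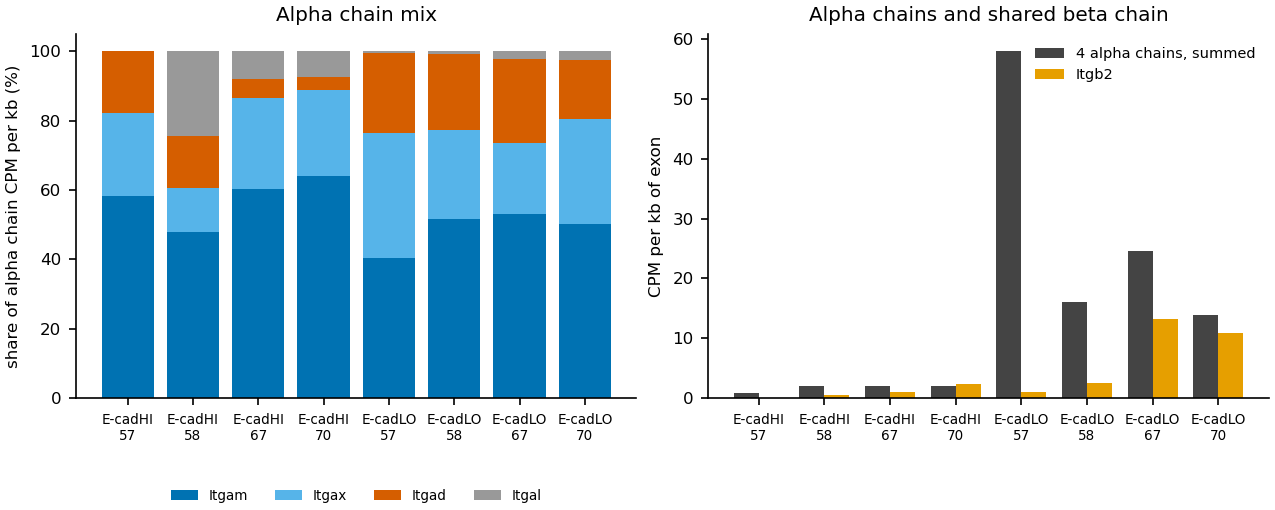
Left, share of each alpha chain in the summed alpha chain level (percent of CPM per kb of exon) in the 8 libraries, labelled by population and mouse. Right, the summed level of the 4 alpha chains and the level of Itgb2 (CPM per kb) in the same libraries, where the E-cadLO library of mouse 57 has 58 CPM per kb of alpha chains and 1.07 of Itgb2.

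Leukocyte markers were set beside the integrins, since no antibody removed leukocytes. Ptprc (CD45), which all white blood cells carry, had 2, 47, 50 and 154 counts in the E-cadHI libraries of mice 57, 58, 67 and 70 and 0, 40, 922 and 604 in their E-cadLO libraries. It was at 0 in the library with the highest Itgam, Itgax and Itgad. The 10 pan-leukocyte genes summed to 34.8 to 133 CPM in E-cadHI and 35.7 to 353 CPM in E-cadLO libraries. This sum was higher in E-cadLO cells in each mouse, but in mouse 57 it hardly differed (34.8 CPM in E-cadHI and 35.7 CPM in E-cadLO cells). In the E-cadLO library of mouse 57 the sum was less than Itgam alone (117 CPM), with 3 of the 10 genes at 0. With the block, 2 of the 9 tested pan-leukocyte genes were higher and 0 lower, beside 0.728% of all tested genes. These were the tetraspanin Cd53 (log2 fold change 2.45, adjusted p = 0.0338, edgeR) and Evi2a (2.08, adjusted p = 0.0427, edgeR), and both were higher in 4 of 4 mice. Arhgdib was the third gene named from this list and had a log2 fold change of 0.27 (adjusted p = 0.70). DESeq2 with the block called 4 genes of this list higher, beside 7.16% of all tested genes, and 1 lower, Cytip. The log2 fold change of Cytip was -1.01 in edgeR with the block, and it was lower in E-cadLO cells in each mouse. The median log2 fold change with the block was 1.84 over this list and 0.029 over all tested genes.

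The 12 microglia genes summed to 61.6 to 154 CPM in E-cadHI and 157 to 501 CPM in E-cadLO libraries, and this sum was higher in E-cadLO cells in each mouse. None of them was at 0 in any E-cadLO library, but Sall1 had 1 count in that of mouse 57 and Gpr34 2 in that of mouse 58. Both lie under the floor of 3 counts. Gpr34 and Slc2a5 were lower in E-cadLO cells in mouse 58 and Olfml3 in mouse 70. With the block, 3 of the 12 rose, among them Cx3cr1, the fractalkine receptor (log2 fold change 2.63, adjusted p = 0.0239), and P2ry12, a purine receptor (2.12, adjusted p = 0.0490), and 0 fell. DESeq2 with the block called 9 of the 12, beside 7.16% of all tested genes. Both shares also apply to the higher calls in the other lists. Of the 9 tested macrophage and monocyte genes, edgeR with the block called Cd68 higher, and DESeq2 with the block called 5 higher and Cd14 lower. The list's sum, 489 to 1152 CPM in E-cadHI and 216 to 807 CPM in E-cadLO libraries, was lower in E-cadLO cells in each mouse, but without Cd14 the other 11 genes summed to 31.4 to 139 and 60 to 298 CPM and were higher in each. Of the 12 neutrophil genes, 3 were tested and 0 called by edgeR with the block (DESeq2 with the block called Ltf lower). S100a9 was at 0 in 6 of the 8 libraries and Ly6g had at most 4 counts. S100a8 had counts in all 8 libraries, with means of 19.4 CPM in E-cadHI and 9.5 CPM in E-cadLO cells. It was lower in E-cadLO cells in each mouse. Csf3r had 3, 15, 5 and 23 counts in E-cadHI and 0, 10, 110 and 106 in E-cadLO libraries of mice 57, 58, 67 and 70. Without Ltf the other 11 genes summed to 16.4 to 25.5 CPM in E-cadHI and 9.06 to 27.7 CPM in E-cadLO libraries. The dendritic cell list (8 genes, 4 tested, 0 called) summed to 6.34 to 14.8 and 15.1 to 27.7 CPM. T and NK cell genes (12, 1 tested, 0 called) summed to 11.8 to 17.3 and 12.2 to 52.2 CPM, and the 6 B cell genes, of which none was tested, to at most 3.63 CPM. The part of any of these cells in the integrin levels was not tested.

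Other brain and tumor genes moved too. With the block, 2 of 8 astrocyte, 2 of 8 oligodendrocyte and 1 of 8 neuron genes rose and 0 fell, while edgeR called 0 of 6 tested endothelial, 0 of 6 fibroblast and 0 of 10 tumor epithelium genes. DESeq2 with the block called 6 of 8 astrocyte, 5 of 8 oligodendrocyte and 6 of 8 neuron genes higher, beside 7.16% of all tested genes. It also called the endothelial gene Tek and the fibroblast genes Pdgfra and Dcn higher. The oligodendrocyte sum was 607 to 8639 CPM in E-cadHI and 1338 to 34370 CPM in E-cadLO libraries, the astrocyte sum 1139 to 3434 and 722 to 9580 CPM, the neuron sum 3.69 to 92.5 and 24.9 to 376 CPM, and the endothelial sum 41.5 to 75.8 and 56.5 to 100.4 CPM. The tumor epithelium genes summed to 7719 to 10440 CPM in E-cadHI and 5763 to 14600 CPM in E-cadLO libraries, so that epithelial markers were present in all 8. Cdh1, which encodes E-cadherin, had 1633, 1718, 1258 and 1227 counts in the E-cadHI and 964, 1560, 1255 and 847 in the E-cadLO libraries of mice 57, 58, 67 and 70, so that the populations overlapped at the mRNA level (adjusted p = 0.48 with the block, edgeR). The fibroblast genes summed to 1184 CPM in the E-cadLO library of mouse 57, against 21.1 to 46.9 CPM in the other E-cadLO and 6.99 to 22 CPM in the E-cadHI libraries. This is the library in which Itgam, Itgax and Itgad were highest, and the part of these fibroblast genes was not tested. Without mouse 57, the log2 fold change was 4.57 for Itgad, 2.95 for Itgam, 3.37 for Itgax and 2.70 for Itgb2 with the block.

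Set against the pan-leukocyte sum, the integrins differed in how far they moved. Of the 10 genes in this sum, Arhgdib (22.3 CPM) and Cytip (20.1 CPM) had the highest means in E-cadHI cells. Arhgdib was higher in E-cadLO cells in only 2 mice and Cytip was lower in each mouse, which limits how far this sum rose. The log2 change of Itgad relative to this sum was 5.71, 2.59, 3.04 and 2.30 in mice 57, 58, 67 and 70. Itgam changed by 5.36, 2.45, 1.55 and 0.953 and Itgax by 6.13, 3.01, 1.25 and 1.45 on the same scale. Itgb2 changed by 2.88, 1.44, 1.81 and 0.678, less than the trio in mice 57, 58 and 70 and more than Itgam and Itgax in mouse 67, and the change of Itgal was above 0 in 1 of 4 mice. Relative to Ptprc alone, the value in mouse 67 was below 0 for Itgam (-0.632), Itgax (-0.926) and Itgb2 (-0.372), whereas that of Itgad was above 0 in all 4 mice (0.857 in mouse 67). In mouse 57 Ptprc had 2 counts in E-cadHI and 0 in E-cadLO cells, both under the floor, so values relative to it there rest on the 0.5 CPM added.

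**Figure D3:**
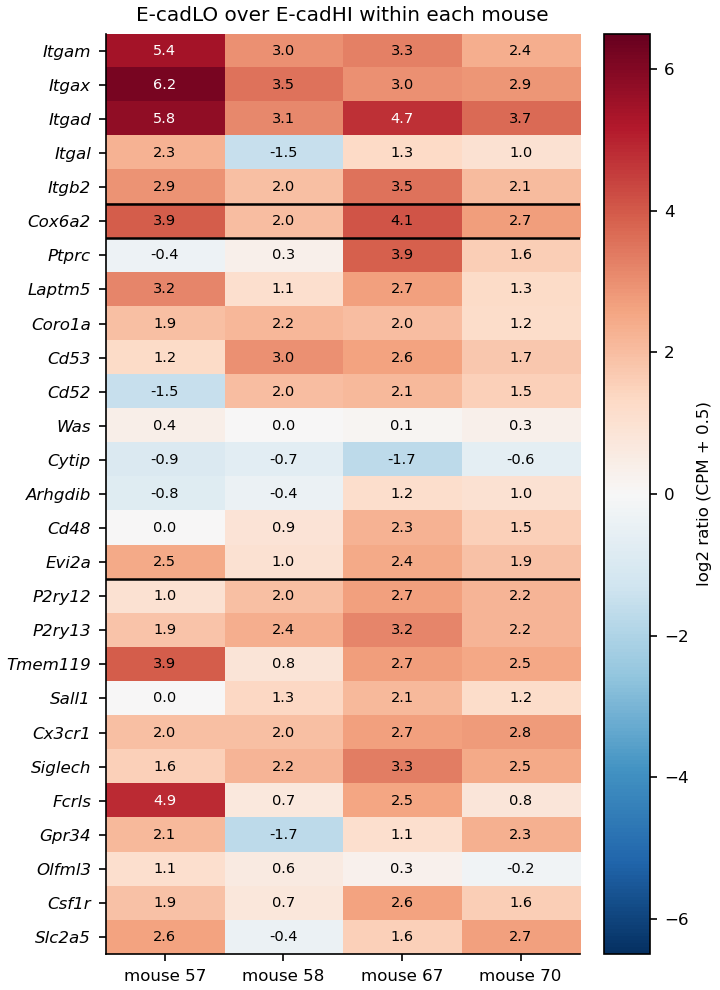
Log2 ratio of E-cadLO over E-cadHI (CPM plus 0.5) within each mouse, with the value printed in each cell, for the 5 integrin genes, Cox6a2, the 10 pan-leukocyte genes and 11 of the 12 microglia genes, in blocks from top to bottom. In mouse 57 Itgam, Itgax and Itgad have ratios of 5.4 to 6.2 and Ptprc has -0.35, and in mouse 67 Ptprc has 3.89.

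The genes around the trio were examined over the 37 genes of the table that start within 500 kb of the Itgad start, 34 of them not integrin genes. Of the 26 that were tested, edgeR called 1 with the block and 0 without it, the next gene after the Itgad start, Cox6a2 (128205435 to 128206387, minus strand), which encodes a subunit of cytochrome c oxidase known from heart and skeletal muscle. Cox6a2 had 26, 10, 10 and 16 counts in the E-cadHI libraries of mice 57, 58, 67 and 70 and 472, 39, 305 and 174 in the E-cadLO libraries, and its log2 fold change with the block was 3.71 ± 0.47 (SE, adjusted p = 0.0271, edgeR). It was higher in 4 of 4 mice and was also called without the block by DESeq2 and by edgeR with no filter on low counts. The gene lies within the span of Itgad on the other strand, so without knowledge of strand use the reads of both genes cannot be told apart where they overlap.

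On the near side, Trim72, a gene of membrane repair and the flanking gene before Itgam, had too few counts for edgeR's filter and was called higher by DESeq2 with the block, with 0, 0, 2 and 2 in the E-cadHI and 46, 2, 32 and 18 in the E-cadLO libraries. On the far side, 9130023H24Rik had a log2 fold change of 0.33 (adjusted p = 0.68 with the block) and was lower in E-cadLO cells in mouse 58. Beyond it, Armc5 (1.55, adjusted p = 0.19), Tgfb1i1 (2.75, adjusted p = 0.16) and Rgs10 (2.14, adjusted p = 0.0882) did not pass with the block and did so with DESeq2 and the block, and were higher in 4 of 4 mice. Over the 26 tested neighbours, 7 (26.9%) were higher in 4 of 4 mice, beside 16.8% of all tested genes, and the median log2 fold change was 0.23, beside 0.029. Armc5, Tgfb1i1 and Rgs10 are named because DESeq2 called them, after their values were seen.

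**Figure D4:**
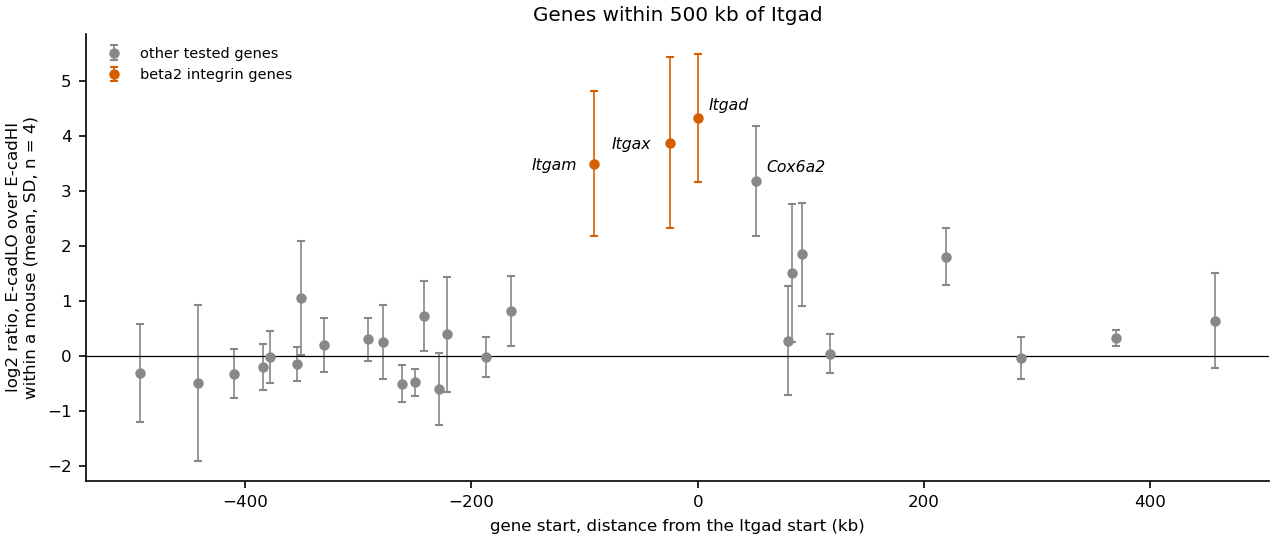
Mean log2 ratio of E-cadLO over E-cadHI within a mouse (CPM plus 0.5, bars are SD over 4 mice) of the tested genes within 500 kb of Itgad, by the distance of the gene start from the Itgad start in kb. Itgam, Itgax, Itgad and Cox6a2 have mean ratios of 3.50, 3.88, 4.33 and 3.19, and the other genes lie below 2.

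The ligands, activators, signalling partners and transcription factors of beta2 integrins were taken from lists written with earlier results of these data known. Among 9 tested ligand genes 0 were called with the block in either direction. Vcam1, an endothelial adhesion molecule, had 7, 39, 14 and 138 counts in E-cadHI and 8077, 71, 214 and 639 counts in E-cadLO libraries, highest in the E-cadLO library of mouse 57 (log2 fold change 3.55, adjusted p = 0.21). The junction protein F11r (440 ± 104 CPM in E-cadHI and 393 ± 79.1 in E-cadLO cells) and the complement component C3, whose fragment iC3b is bound by CR3 and CR4 (83.1 ± 5.75 and 69 ± 26.1 CPM), had log2 fold changes of -0.15 (adjusted p = 0.67) and -0.34 (adjusted p = 0.44). DESeq2 with the block called Icam1, the classic ligand of LFA-1 and Mac-1, and Jam2. Icam1 had 6, 13, 10 and 20 counts in E-cadHI and 81, 17, 165 and 145 in E-cadLO libraries and an adjusted p of 0.0989 in edgeR with the block.

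Of 11 tested activators and adaptors, 0 were called with the block. Their most abundant genes were Flna (filamin A), Skap2 and the small GTPase Rap1b, with log2 fold changes of 0.10, -0.42 and -0.26. Fermt3 (kindlin-3), the activator used by blood cells, had a log2 fold change of 2.06 (adjusted p = 0.0566, edgeR with the block) and was called by DESeq2 with the block. Of 15 tested signalling genes, 0 were called. The most abundant, Vav3, Lyn and Plcg2, had log2 fold changes of 0.42, -0.22 and -0.65, and DESeq2 with the block called 5 of them higher, among them the ITAM adaptors Tyrobp and Fcer1g, the GTPase Rac2 and the adaptor Lcp2.

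Of 10 myeloid transcription factors, Irf8, a factor of microglia and macrophages, rose with the block (log2 fold change 2.38 ± 0.37 SE, adjusted p = 0.0392, higher in 4 of 4 mice) and 0 fell. Runx1 and Ikzf1, the other factors named for their abundance, had log2 fold changes of 0.38 (adjusted p = 0.39) and -0.82 (adjusted p = 0.37). Spi1, which encodes PU.1, changed by 2.33 ± 0.55 (SE) on the log2 scale (adjusted p = 0.11). DESeq2 with the block called 4 of the 10 factors higher, namely Irf8, Spi1, Irf5 and Ets1. Of the other leukocyte integrins, 5 of 6 were tested and 0 called by edgeR with the block, while DESeq2 with the block called Itga6 lower. Itgb1 and Itga6, which epithelial cells also carry, were the most abundant (288 ± 78.4 and 179 ± 27.8 CPM in E-cadHI, 244 ± 56.5 and 92.6 ± 45.6 CPM in E-cadLO cells). Itga5, the fibronectin receptor chain, had 3, 47, 12 and 13 counts in E-cadHI and 460, 37, 15 and 19 in E-cadLO libraries, high in the E-cadLO library of mouse 57. Over these lists the median log2 fold change with the block was 1.30 for ligands, -0.0018 for activators and adaptors, 1.31 for signalling, 0.81 for transcription factors and 0.19 for other integrins.

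Likeness of pattern was measured by Pearson's r over log2(CPM + 0.5) in the 8 libraries, among the tested genes, as a description, since the libraries share populations and mice. Itgad was most like Hist1h1a (r = 0.98), Agpat9, Ascl3, Hbegf, Wbscr25, Rccd1, Gm12260, Trim17, Epb41l2 and Mafk, with r of at least 0.966. Itgam was 11th (r = 0.964), Itgax 28th (0.955) and Cox6a2 79th (0.932) in this order, whereas Itgb2 was 2671st (0.52) and Ptprc 6251st (0.0937). These places depend on the measure. By Spearman's correlation with Itgad, Itgam and Itgax were both 629th (0.786), Cox6a2 293rd (0.857) and Itgb2 2774th (0.45). Itgam was most like Itgax (r = 0.986), followed by Rnd1, Hbegf, Cdr2l, Lrrc48, Epb41l2, Dubr, Ascl3, Tnni2 and Itgad.

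Hbegf, an EGFR ligand, stood at 24.0 CPM in E-cadHI and 94.6 CPM in E-cadLO cells, and Trim17 at 0.841 and 21.2 CPM. Itgb2 was most like Nckap1l (r = 0.99), Ighm, P2ry13, Rac2, C1qc, Tyrobp, C1qa, Cd68, Trem2 and Csf1r, several of which are microglia and macrophage genes. Itgam was 1386th in the order of likeness to Itgb2 (r = 0.66), Itgad 2300th (0.52) and Ptprc 210th (0.87).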

How the data were processed

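Bulk mRNA of sorted E-cadHI and E-cadLO cells was measured in 8 libraries of 4 mice. The authors mapped single reads with HISAT2 2.1.0 to GRCm38, counted them per gene (Icount by the study's methods, HTSeq by the submitters' processing notes) and deposited whole-number counts without normalization. Of 32259 entries, 365 without a gene identifier (0.0636% to 0.0954% of counts) were left out.

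Counts were tested with edgeR 4.0.16 (R 4.3.3), using TMM, filterByExpr by population, the quasi-likelihood test and Benjamini-Hochberg adjustment over 13598 genes at 0.05, without a block, since the study's methods name DESeq2 and no pairing. The mouse number of the labels ties both libraries of an animal together, so the block fit is given beside it. Correlations of deviations from group means were 0.275 to 0.698 within a mouse and -0.516 to 0.153 between an E-cadHI and an E-cadLO library of different mice. The other fits were DESeq2 1.42.0 with and without the block, its size factors, no filter, at least 10 counts in every library, a robust fit and each mouse left out. Steps were tested on simulated data. Ratios used CPM plus 0.5. Intervals were not computed, and depth limits genes near 3 counts. Labels do not name separate cultures of the line, so p-values measure the spread between these mice. Without the block this is the spread of levels, and with it the spread of the difference between E-cadLO and E-cadHI cells from mouse to mouse. No pair of libraries agreed within sampling noise (smallest chi-square per degree of freedom 27.7).

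The genes and lists were chosen with earlier results of these data known. Genes named are the 5 integrin genes, from each of 6 lists the genes called (at most 5) filled to 3 by mean CPM, the 10 genes most like Itgad and Itgam, and the flanking genes, and others where stated. The genes most like Itgb2, the genes named from cell type lists and those that DESeq2 called were added after their values were seen. Protein sequences were not analysed here, and values of some genes of the lists are not reported here. Figures used matplotlib 3.10.9 and tables pandas 2.3.3 with Python 3.11.15.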

Additional observations from a re-analysis of the deposited data

Results flagged for a closer look

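Of 42 groups of 4 values screened for a value far from the other 3, 7 held one, where about 2.1 would be flagged by chance. The values are not independent of one another. Itgax stood at 100.6 CPM in the E-cadLO library of mouse 57, above 19.7 to 24.3 CPM in the other E-cadLO libraries. In the same library the summed alpha chains were 54.1 times Itgb2 per kb, against at most 6.29 in the others, and the fibroblast genes summed to 1184 CPM. In mouse 70, the astrocyte genes summed to 3434 CPM in E-cadHI and 9580 CPM in E-cadLO cells, and the oligodendrocyte genes to 8639 and 34370 CPM, each far above the other 3 mice.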

How the results depend on the processing

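The number of genes called moved with the model, while the integrin fold changes kept their direction. Without the block 0 genes were called higher and 0 lower. With the replicate block 99 were higher, with DESeq2, over 30100 genes in place of 13598, 376 higher and 40 lower, with DESeq2 and the replicate block 1010 and 201, with no filter 23 higher and with at least 10 counts in every library 3 higher. With each mouse left out, calls without the block stayed at 0 in both directions, and with the block they ranged from 0 to 425 higher and 0 to 24 lower (425 and 24 without mouse 57, 63 and 3 without mouse 58, 2 and 0 without mouse 70, and 0 and 0 without mouse 67). The genes called in the lists numbered 12 higher with the replicate block, 9 higher and 1 lower with DESeq2, 50 higher and 4 lower with DESeq2 and the replicate block, and from 0 to 36 higher and 0 to 1 lower with the block and a mouse left out, against 0 without the block. The cause was not tested.

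The log2 fold change ranged from 4.52 to 6.02 for Itgad, 2.95 to 4.07 for Itgam, 3.33 to 5.02 for Itgax, 2.27 to 3.59 for Itgb2 and 0.32 to 2.40 for Itgal over all fits, with no change of direction. Of 72 alternative values, 70 moved by less than the SD between mice. This limit is loose, since that SD was 0.73 for Itgb2 and up to 1.61 for Itgal. Leaving out 1 of 4 mice can hardly move a mean that far, so such fits say little about stability. Itgax at 3.33 without mouse 57, in place of 4.52, is among the 70. Itgad, Itgal and Itgb2 had too few counts to enter the fit with at least 10 counts in every library. All 20 alternative mean ratios within a mouse, under a pseudocount of 0.1 or 2, DESeq2's size factors or plain totals, moved by less than that SD. Relative to the macrophage and monocyte list, whose sum is led by Cd14, Itgad changed by 5.19 on the log2 scale in place of 3.41, Itgb2 by 3.48 in place of 1.70, and Itgal turned from -0.149 to 1.63. The 10 genes most like Itgad shared 0 genes with the order by Spearman's correlation and 5 with that under a pseudocount of 2, and those most like Itgam 2 and 8. With 3 counts as the floor, the E-cadHI levels of Itgad, Itgal and Itgb2 are the least precise.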
